A study of Mus musculus with 17 samples.

Results

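The genes described here were listed for the choice between the cholinergic and the noradrenergic transmitter in sympathetic neurons and are called fate genes. The list held 8 genes, chosen by symbol. These were the homeobox factors Hmx1, Tlx3 and Shox2, the genes for acetylcholine synthesis, storage and choline uptake Chat, Slc18a3 and Slc5a7, and the genes for acetylcholine breakdown Ache and Prima1. Of the 17306 probe sets, 7 carried the symbol of a listed gene, and Chat was not analysed here. Probe sets entered the tests if 2 or more of the 17 arrays had a log2 value over 4. This left 9973 probe sets, 4 of them for Hmx1, Shox2, Ache and Prima1. Tlx3, Slc18a3 and Slc5a7 never exceeded the limit and are described by their values.

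RNA came from pooled superior cervical and stellate ganglia of C57BL/6 mice, both of them sympathetic ganglia. Wild-type mice (Wt) were set against mice with the point mutation F1178L knocked into 1 (Het) or both (Hom) alleles of Alk, a receptor tyrosine kinase of developing sympathetic neurons. The mutated exon is flanked by recombination sites (LoxP and Lox511) in these mice. At birth (P0) there were 4 arrays per genotype, numbered 1 to 4 for Wt, 5 to 8 for Het and 9 to 12 for Hom. At postnatal day 18 (P18) there were 3 Wt arrays, numbered 1 to 3, and 2 Het arrays, numbered 4 and 5. Each was hybridised to an Affymetrix Mouse Genome array, and values are log2 expression. No batch is given, so stage, and genotype at either age, cannot be told apart from one. Whether each sample was a separate animal is not labelled, and the p-values cover the spread among these samples, which may be technical.

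Most sympathetic neurons release noradrenaline, and a minority, among them those of sweat glands, release acetylcholine. Early in mouse development many sympathetic neurons carry features of both fates. Hmx1 then takes part in setting the noradrenergic fate and in holding down Tlx3 and Ret, while Tlx3 and Ret take part in setting the cholinergic one. A cholinergic neuron makes acetylcholine with choline acetyltransferase (Chat), loads it into vesicles with the transporter Slc18a3 and takes choline back up with Slc5a7. Acetylcholinesterase (Ache) breaks the transmitter down, and Prima1 anchors the enzyme in the membrane. Slc18a3 lies within the Chat gene on mouse chromosome 14.

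The tissue carried its defining noradrenergic genes in every array. Th, the rate-limiting enzyme of noradrenaline synthesis, lay between 10.96 and 13.33, and Dbh, which makes noradrenaline from dopamine, between 12.14 and 13.59. The array medians lay between 4.41 and 4.68. P0 Wt replicates 1 and 4 stood apart in sensory neuron markers. The log2 of the summed level of 9 such markers of 13 listed ranged from 6.56 to 10.27 in P0 Wt, from 6.61 to 6.73 in P0 Het and from 6.71 to 7.0 in P0 Hom. Pou4f1, a defining factor of sensory neurons, was at 5.94 and 5.40 in those Wt arrays and between 2.51 and 2.62 in the other 15. Over the 4 P0 Wt arrays the SD was 0.12 for Hmx1, 0.24 for Ache and 0.62 for Prima1. The highest Prima1 value of these, 5.13, was in replicate 4. Shox2 had an SD of 0.22 but lay near background in all 4, so its spread says little here.

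Hmx1 fell sharply in homozygous ganglia at birth. Its values were 10.995, 10.90, 10.95 and 10.73 in P0 Wt, 10.51, 10.80, 10.62 and 10.60 in P0 Het, and 8.90, 9.31, 8.98 and 8.86 in P0 Hom. All 4 Hom arrays lay below every Wt and Het array, while the Het range overlapped the Wt range through Het replicate 6. Against Wt, Hmx1 fell by 1.88 ± 0.10 in Hom ganglia on the log2 scale (SE, limma, adjusted p = 1.7e-08), a 3.69-fold lower level. Against Het it fell by 1.62 ± 0.10 (adjusted p = 3.8e-07). The Het level differed from Wt by -0.26 ± 0.10, which was not called (adjusted p = 0.171). Of all genes tested, 5.16% were called higher and 3.34% lower in Hom than in Wt, 4.14% higher and 3.25% lower in Hom than in Het, and 1.8% higher and 1.3% lower in Het than in Wt. In bulk samples, fewer cells that express a gene and less RNA per cell cannot be told apart.

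The upstream sequence of Hmx1 is shown because no other listed gene was called lower in Hom than in Wt. The window holds the 169 bases before the annotated start in the RefSeq tables, on chr5:35388611-35388779 of GRCm38.p6, plus strand, written 5′ to 3′. Capitals mark matches to any of the searched motifs on either strand. These were TAAT, a homeodomain core, CAAGTG, a site known for HMX1, CANNTG, the E-box, which includes CAAGTG, and TGACGTCA, the cAMP response element.
Hmx1: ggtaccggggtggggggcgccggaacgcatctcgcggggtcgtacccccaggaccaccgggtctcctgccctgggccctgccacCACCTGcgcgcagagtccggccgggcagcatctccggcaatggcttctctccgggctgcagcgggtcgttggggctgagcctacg
The window held 1 E-box match and none to the other 3 motifs. For comparison, 32851 promoter windows were cut to their first 169 bases, wherever the annotated start of each gene lay. Positions relative to that start can therefore differ. Of these windows, 53.3% held an E-box, 46.3% the homeodomain core, 8.45% the HMX1 site and 0.487% the cAMP response element. The bases were 73.4% G or C.

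Shox2 went the other way and stepped up with each mutant allele. Shox2 encodes a homeobox factor known from limb, heart pacemaker and sensory neuron development. It was listed with the fate genes, and a part of it in transmitter choice was not tested. Its values were 3.02, 2.77, 3.08 and 2.60 in P0 Wt, 6.18, 6.08, 5.48 and 5.36 in P0 Het, and 7.87, 7.33, 7.95 and 6.95 in P0 Hom. The 3 genotypes did not overlap at birth. Shox2 rose by 2.91 ± 0.24 in Het ganglia (adjusted p = 5.9e-06), a 7.51-fold difference, and by 4.66 ± 0.24 in Hom ganglia (adjusted p = 1.7e-08), a 25.2-fold difference. Hom exceeded Het by 1.75 ± 0.24 (adjusted p = 0.000541). Every Wt array lay under the limit of 4, near background, and the gene passed the filter through P0 Het and P0 Hom arrays alone. The folds against Wt are therefore inexact in size.

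The window upstream of Shox2 is shown as the counterpart to that of Hmx1. It holds the 250 bases before the annotated start, on chr3:66981772-66982021 of GRCm38.p6, minus strand, written 5′ to 3′ on that strand.
Shox2: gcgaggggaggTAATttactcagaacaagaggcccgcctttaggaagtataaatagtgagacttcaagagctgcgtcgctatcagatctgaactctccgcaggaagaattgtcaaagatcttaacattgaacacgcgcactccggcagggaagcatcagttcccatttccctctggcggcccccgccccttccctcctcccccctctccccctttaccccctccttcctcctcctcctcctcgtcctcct
It held the homeodomain core once, which 54.9% of windows cut in the same way to their first 250 bases held. The HMX1 site, the E-box and the cAMP response element had no match, and 11.6%, 66.2% and 1.55% of the windows held them. The bases were 55.6% G or C. These matches describe letters in the windows and were not tested against binding.

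**Figure D1:**
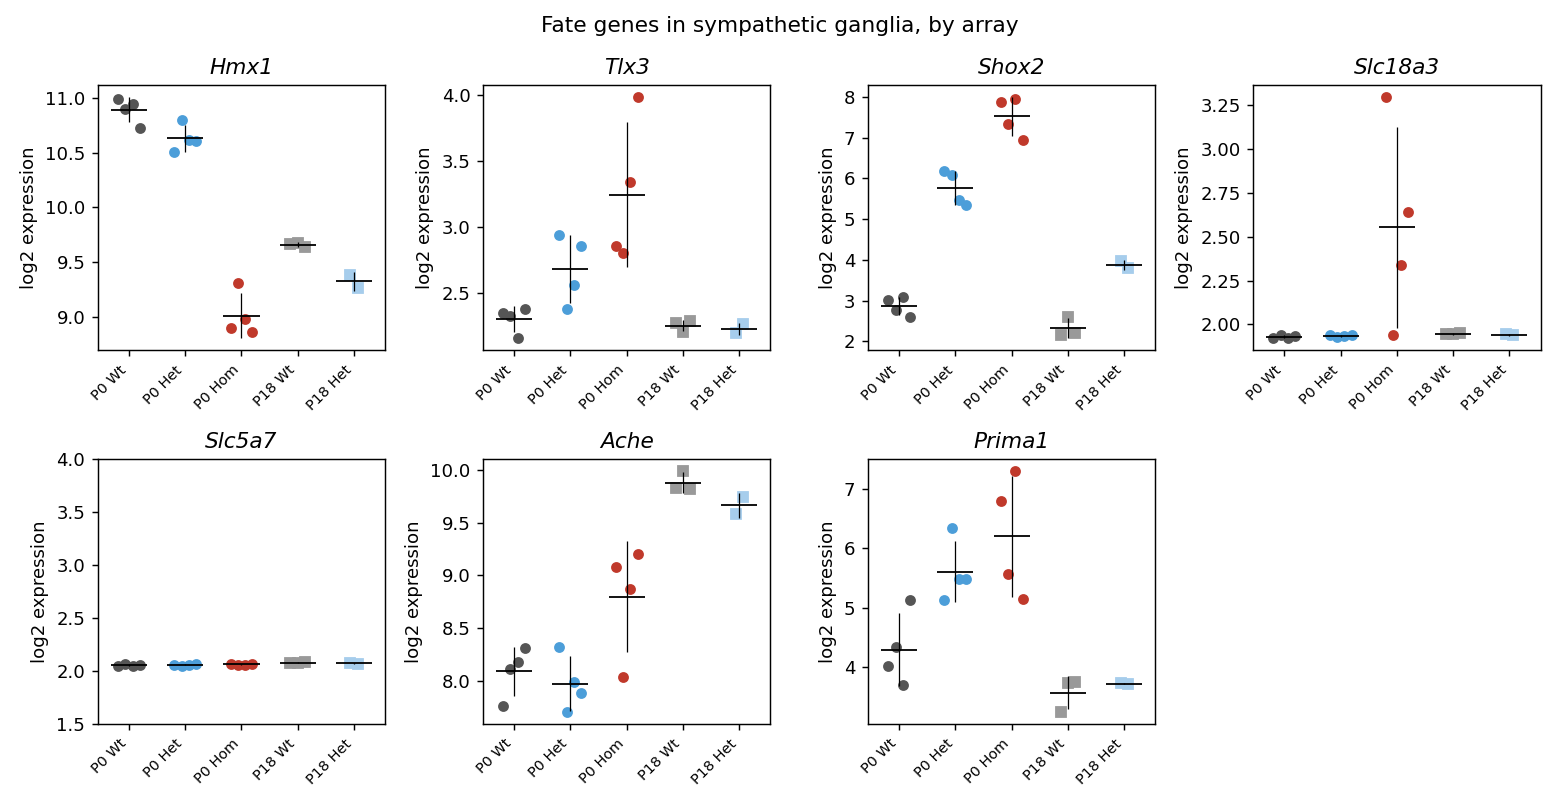
The log2 expression of the 7 listed genes with values is plotted for each array in the 5 groups, with circles for P0, squares for P18, horizontal lines for group means and vertical lines for 1 SD (n = 4 per P0 group, 3 for P18 Wt and 2 for P18 Het). Hmx1 drops to 8.86 to 9.31 in P0 Hom, and Shox2 steps up from at most 3.08 in P0 Wt to at least 6.95 in P0 Hom. The vertical axes differ between genes.

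Tlx3, the homeobox factor of the cholinergic fate, stayed low but was highest in mutant newborns. Its values were 2.35, 2.32, 2.16 and 2.38 in P0 Wt, 2.94, 2.38, 2.56 and 2.86 in P0 Het, and 2.86, 2.80, 3.34 and 3.99 in P0 Hom. No Hom array overlapped Wt, and the Het and Hom ranges overlapped. All values lay under 4, near background, so differences are inexact in size. The highest, 3.99, was in P0 Hom replicate 12. That array also had the highest median (4.68) and the highest smallest value (1.51) of the 17 arrays. Its part in the Tlx3 difference was not tested. In a fit without the filter, over 17306 probe sets, the Hom difference of 0.95 ± 0.21 was called (adjusted p = 0.0189), where 2.54% of all probe sets were called higher. The Het difference of 0.38 ± 0.21 was not called (adjusted p = 0.549). At P18 the gene lay between 2.20 and 2.28 in all 5 arrays.

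The transporter genes stayed near background. Slc18a3 was between 1.92 and 1.95 in 14 of the 17 arrays. The other 3 were P0 Hom replicates 9, 11 and 12, at 3.30, 2.34 and 2.64, while P0 Hom replicate 10 was at 1.94. The Hom difference of 0.62 ± 0.19 was not called without the filter (adjusted p = 0.112). Slc5a7 spanned 2.04 to 2.09 over the 17 arrays, and its Hom difference was 0.0067 ± 0.0056 (adjusted p = 0.642). Its difference between Wt ages, 0.023 ± 0.006, was called without the filter (adjusted p = 0.0082), where 28% of all probe sets were called higher. Values this low bear on detection by these probes and do not show that a transcript was missing.

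Acetylcholinesterase was at measurable levels in every array, while its anchor lay near or under the limit of 4 in part of them. Ache values were 7.76, 8.11, 8.18 and 8.31 in P0 Wt, 8.32, 7.70, 7.98 and 7.88 in P0 Het, and 9.08, 8.03, 8.87 and 9.20 in P0 Hom. Hom replicates 9, 11 and 12 lay above all Wt and Het arrays, and Hom replicate 10 lay among them. Ache rose by 0.71 ± 0.21 in Hom against Wt (adjusted p = 0.0469) and by 0.82 ± 0.21 against Het (adjusted p = 0.0272). The Hom call against Wt was lost in 21 of 27 alternatives and the call against Het in 9 of 27. The Het difference from Wt was -0.12 ± 0.21 (adjusted p = 0.823).

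Prima1 rose in homozygous newborns, with a wide spread. Its values were 4.01, 4.34, 3.69 and 5.13 in P0 Wt, 5.13, 6.34, 5.48 and 5.49 in P0 Het, and 6.80, 5.57, 7.31 and 5.14 in P0 Hom. The Hom and Wt arrays nearly met, at 5.14 in Hom replicate 12 and 5.13 in Wt replicate 4. Prima1 rose by 1.92 ± 0.42 in Hom against Wt (adjusted p = 0.00782), a 3.78-fold difference. Wt replicates 1 to 3 lay near the limit of 4, so this fold is inexact in size. The Het difference of 1.32 ± 0.42 was not called (adjusted p = 0.102), nor was that of Hom against Het, 0.60 ± 0.42 (adjusted p = 0.422). The Hom call was lost in a fit of the compared arrays alone (adjusted p = 0.0888) and with the methods' t-test followed by the same adjustment. Replicate 10 was thus the lowest Hom array for Tlx3, Slc18a3 and Ache and the highest for Hmx1. It was also the highest for fat genes, whose summed level ranged from 11.25 to 14.62 on the log2 scale in P0 Hom, from 10.50 to 12.33 in P0 Het and from 12.51 to 13.63 in P0 Wt. Without it the Hom differences from Wt were -1.99 for Hmx1, 4.72 for Shox2, 0.96 for Ache and 2.13 for Prima1, and all 4 were called.

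**Figure D2:**
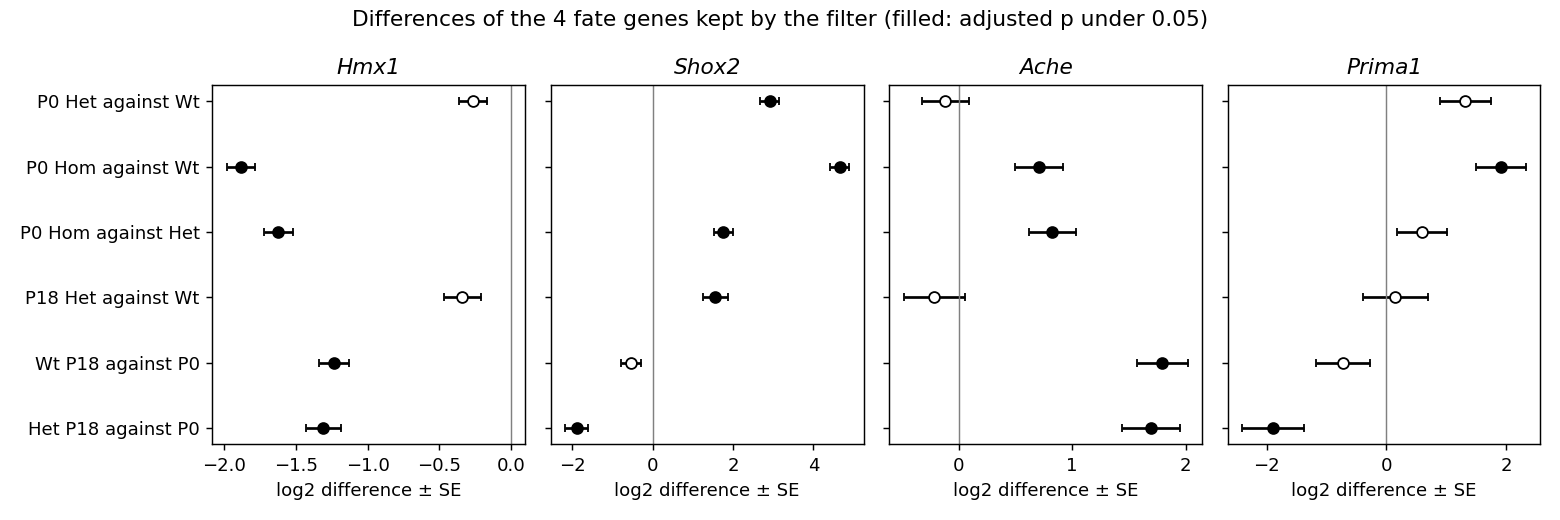
Log2 differences with their SE are plotted for the 4 listed genes kept by the filter, in 6 comparisons between groups, with filled points where the adjusted p was under 0.05 and a grey line at 0. Hmx1 lies at -1.88 and Shox2 at 4.66 for Hom against Wt at P0, and Ache lies at 1.79 for Wt at P18 against P0. The horizontal axes differ between genes.

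At P18, Shox2 was the 1 listed gene called between Het and Wt. Shox2 was at 2.17, 2.61 and 2.19 in P18 Wt and at 3.97 and 3.79 in P18 Het. The groups did not overlap, and Het exceeded Wt by 1.56 ± 0.31 (adjusted p = 0.0474). All 5 arrays lay under 4, near background, so the difference is inexact in size, and the call was lost in 21 of 27 alternatives. Across all genes 0.211% were called higher and 0.0501% lower. Hmx1 was at 9.67, 9.68 and 9.64 in Wt and at 9.39 and 9.26 in Het. These did not overlap either, but the difference of -0.34 ± 0.13 was not called (adjusted p = 0.460). No share of all genes without overlap is given here, at either age, and groups of 3 and 2 arrays separate easily. Ache differed by -0.22 ± 0.27 and Prima1 by 0.15 ± 0.54, neither of them called. Prima1 lay between 3.23 and 3.73 in the 5 arrays, near background. Between both ages the Het effect was compared directly, and with limma 0 of the 4 genes were called for the change from P0 to P18. At an unadjusted p under 0.05 there was 1, Shox2 at -1.35 ± 0.39 (adjusted p = 0.210). Of the 9973 genes tested, 989 were under that unadjusted limit. Of all genes, 0.0802% were called higher and 0.0602% lower for this difference of effects.

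With age, Hmx1 fell and Ache rose in both genotypes measured. In Wt, Hmx1 fell by 1.23 ± 0.11 from P0 to P18 (adjusted p = 1.4e-07), and Ache rose by 1.79 ± 0.23 (adjusted p = 6.9e-06) to 9.83, 9.996 and 9.82. In Het ganglia 3 of the 4 genes fell. Hmx1 fell by 1.31 ± 0.12 (adjusted p = 3.6e-07). Shox2 fell by 1.89 ± 0.29 (adjusted p = 6.1e-05). Prima1 fell by 1.90 ± 0.52 (adjusted p = 0.00647), while Ache rose by 1.70 ± 0.26 (adjusted p = 5.2e-05) to 9.58 and 9.75. Shox2 and Prima1 lay under the limit of 4 in all P18 arrays, so their falls are inexact in size. Shox2 in Wt differed by -0.54 and Prima1 by -0.73, neither of them called. Calls were frequent between ages, with 27.9% of all genes higher and 27% lower in Wt and 22.3% higher and 25.5% lower in Het, so a call between ages sets none of these genes apart. Among 6 kept sensory neuron markers, Avil, Tlx2 and Ntrk2 rose and P2rx3 fell in Wt, with a median difference of -0.21. Their summed level, 11.78 to 12.18 at P18, rested on Avil, an actin-binding protein gene, at 11.73 to 12.14 there, while Pou4f1 lay between 2.56 and 2.60. Their part in these results was not tested.

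Ordered by level, Hmx1 was highest in P0 Wt, at 10.89 ± 0.12 (SD, n = 4), followed by P0 Het at 10.63 ± 0.12 (SD, n = 4) and P18 Wt at 9.66 ± 0.02 (SD, n = 3). P18 Het at 9.32 ± 0.09 (SD, n = 2) and P0 Hom at 9.01 ± 0.21 (SD, n = 4) followed, with overlapping ranges. Homozygous ganglia at birth thus held Hmx1 at a level below that of Wt ganglia 18 days later, with no overlap between their arrays, a comparison that was not among the tests. For Shox2 the order was P0 Hom at 7.52 ± 0.47 (SD, n = 4), P0 Het at 5.78 ± 0.42 (SD, n = 4), P18 Het at 3.88 ± 0.13 (SD, n = 2), P0 Wt at 2.87 ± 0.22 (SD, n = 4) and P18 Wt at 2.32 ± 0.25 (SD, n = 3), and only the last pair overlapped.

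**Figure D3:**
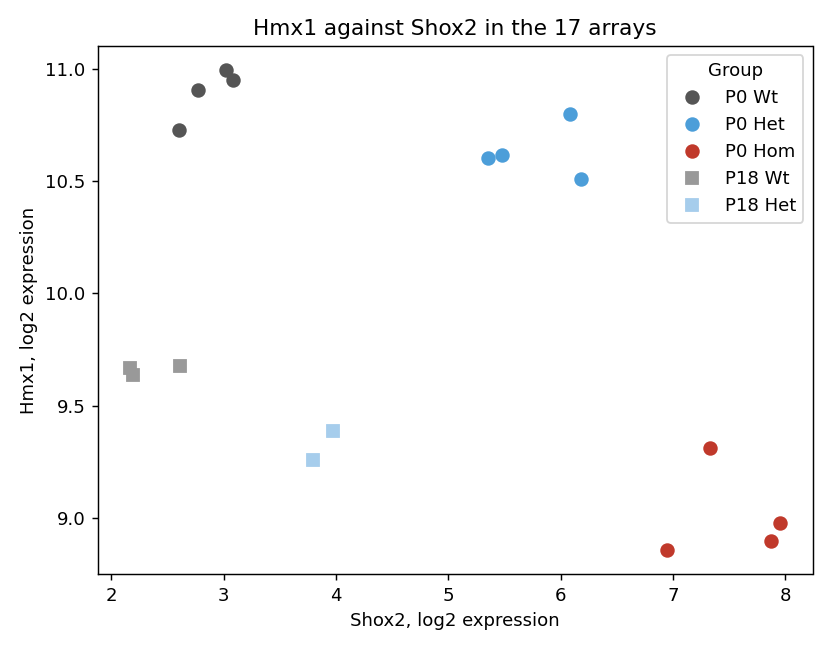
Each point is 1 of the 17 arrays, with Shox2 log2 expression on the horizontal axis, Hmx1 log2 expression on the vertical axis and the group given by colour and shape. P0 Het arrays lie at 10.51 to 10.80 in Hmx1, next to P0 Wt, while their Shox2 reaches 5.36 to 6.18, and P0 Hom arrays lie lowest in Hmx1 and highest in Shox2.

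Noradrenergic genes were called at birth in homozygous ganglia. All 8 genes listed for noradrenaline synthesis, storage and uptake were kept, among them Maoa, which encodes a breakdown enzyme. With limma 0 of the 8 were called in Het against Wt, where the differences ran from -0.26 ± 0.12 for Th to 0.57 ± 0.20 for the noradrenaline transporter Slc6a2. In Hom against Wt 3 fell, where 3.34% of all genes did, and none rose, with a median difference of -0.34 beside 0.014 over all genes. Th fell by 0.82 ± 0.12 (adjusted p = 0.00044), Ddc, which makes dopamine, by 0.75 ± 0.12 (adjusted p = 0.000794) and Gch1, which supplies the cofactor of Th, by 0.37 ± 0.11 (adjusted p = 0.0415), the last a call lost in 18 alternatives. Dbh differed by -0.015 ± 0.095. Th lay between 11.88 and 12.24 in P0 Wt, between 11.66 and 11.88 in P0 Het and between 10.96 and 11.66 in P0 Hom, so that Hom and Wt did not overlap. Against Het, 5 of the 8 fell in Hom, where 3.25% of all genes did, led by Slc6a2 at -0.90, Ddc at -0.82 and Th at -0.56. With the methods' t-test and the same adjustment, these 5 calls and the 3 of Hom against Wt were all lost. The call of Slc18a2 against Het was lost in 10 alternatives, and those of Th and Gch1 in 3 each. At P18 none of the 8 was called between Het and Wt, and with age all 8 rose in Wt, where 27.9% of all genes did, and 6 in Het, where 22.3% did.

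Among 12 listed sympathetic transcription factors 10 were kept. Of all genes, 1.8% rose in Het, and 5.16% rose and 3.34% fell in Hom against Wt. In Het against Wt Insm1 rose by 1.22, Eya1 by 0.75 and Gata3 by 0.49, and none fell. The calls of Insm1 and Gata3 were lost in 13 and 10 alternatives. In Hom against Wt Sox11 and Eya1 rose by 0.66 and 0.62, and Tbx20, Sox4 and Gata2 fell by 1.11, 1.03 and 0.86. Tbx20 lay between 4.01 and 4.93 in P0 Wt and between 2.92 and 4.04 in P0 Hom. These values are near the limit of 4, so its fall is inexact in size, and its call was lost in 2 alternatives. The call of Sox11 was lost in 14 alternatives, and those of Sox11 and Sox4 without P0 Wt replicates 1 and 4. Gata2, a zinc finger factor of noradrenergic neurons, also fell by 0.74 in Hom against Het, as did Phox2a, a homeobox factor that drives Dbh and Th, by 0.29, where 3.25% of all genes fell, the call of Phox2a being lost in 11 alternatives. Gata2 was between 9.73 and 9.86 in P0 Wt, 9.61 and 9.75 in P0 Het and 8.58 and 9.25 in P0 Hom. None was called at P18. With age, 2 rose and 6 fell in Wt, where 27.9% of all genes rose and 27% fell, the falls led by Sox11 and Sox4, factors of immature neurons, and Gata3, and in Het none rose and 6 fell, where 22.3% of all genes rose and 25.5% fell.

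Of the receptors listed as steering transmitter choice, 5 of 11 were kept, and Ret was the only one called between genotypes. Ret, the GDNF family receptor of the cholinergic program, was at 9.26, 9.51, 9.02 and 9.14 in P0 Wt, 10.32, 9.94, 9.99 and 10.10 in P0 Het, and 11.46, 10.31, 11.44 and 11.50 in P0 Hom. It rose by 1.94 in Hom against Wt, where 5.16% of all genes rose, and by 1.09 against Het, where 4.14% did, and the Het difference of 0.85 ± 0.23 was not called (adjusted p = 0.0581). Lifr and Il6st, receptors of the cytokines that can switch sympathetic neurons to acetylcholine, differed from Wt by 0.24 to 0.35 and by -0.04 to 0.08 at P0, without a call. The Alk gene itself rose by 0.68 in Het and by 0.999 in Hom at birth and by 1.22 in Het at P18. The Het calls of Alk were lost in 17 alternatives at P0 and in 13 at P18, and both were lost without P0 Wt replicates 1 and 4.

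Neuropeptides of both kinds of neuron were in part called, 8 of 9 listed being kept. Sst and Cartpt, the somatostatin and CART precursors, rose by 3.85 and 3.33 in Het and by 5.22 and 3.28 in Hom, where 1.8% of all genes rose in Het and 5.16% in Hom. Sst was at 2.28, 3.08, 5.21 and 1.89 in P0 Wt, near background in all but replicate 3, so its differences are inexact in size. Without P0 Wt replicate 3 they were 4.55 and 5.92, without P0 Wt replicates 1 and 4 they were 2.82, no longer called, and 4.19, and without P0 Hom replicate 10 the Hom difference was 6.02. With array weights it was 6.66. Npy, a cotransmitter of noradrenergic neurons, and Adcyap1, the PACAP precursor, fell by 2.48 and 2.11 in Het and by 3.17 and 2.69 in Hom, where 1.3% of all genes fell in Het and 3.34% in Hom. Adcyap1 was highest in P0 Wt replicates 1 and 4, at 5.58 and 7.08, and Npy lowest in them among the P0 Wt arrays, at 10.75 and 11.03. Without these arrays Adcyap1 fell by 1.39 in Het and 1.97 in Hom, and Npy by 3.12 and 3.80, all called. Both mutant means of Adcyap1 lay under 4, so its falls too are inexact in size. Vip, a cotransmitter of cholinergic neurons, was 1.91 ± 0.71 higher in Het and 1.84 ± 0.71 higher in Hom without a call (adjusted p = 0.166 and 0.140). Its P0 Wt values were spread from 7.73 to 12.19, with replicates 1 and 4 lowest at 7.73 and 8.56. Replicates 2 and 3 were at 10.33 and 12.19, while the Het and Hom arrays lay between 10.49 and 12.42. At P18 Cartpt rose by 2.73 in Het, where 0.211% of all genes rose, and the other 7 were not called.

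Of 11 acetylcholine receptor genes, through which ganglion neurons receive their input, 3 were kept. Chrnb4, a nicotinic subunit, fell by 0.55 in Hom against Wt, where 3.34% of all genes fell, and Chrna3 and Chrna5 differed by -0.21 and -0.10 without a call. All 3 rose with age in Wt, where 27.9% of all genes did, Chrnb4 by 1.43, Chrna3 by 1.39 and Chrna5 by 0.56. Among 8 genes of esterase assembly and choline supply, 5 were kept, and besides Prima1 the choline transporter gene Slc44a2 rose by 0.48 in Hom against Wt, where 5.16% of all genes rose. That call was lost in 11 alternatives.

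**Figure D4:**
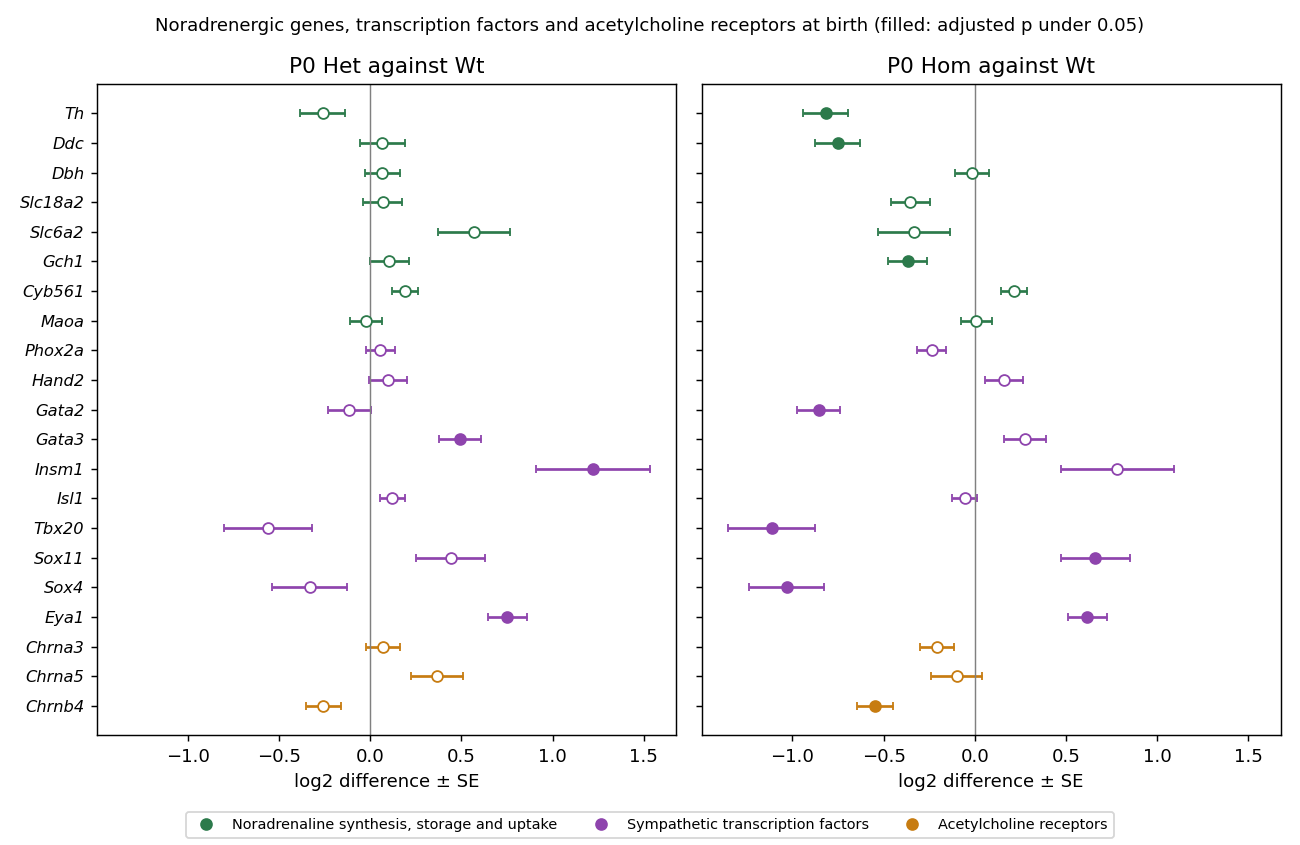
Log2 differences with their SE are plotted for the noradrenaline genes, the transcription factors and the acetylcholine receptors kept by the filter, for Het (left) and Hom (right) against Wt at P0, with filled points where the adjusted p was under 0.05. Th at -0.82 and Gata2 at -0.86 lie left of 0 in Hom, and none of the noradrenaline genes is filled in Het.

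Some markers of other cells were called between genotypes at birth. Of all genes, 1.8% rose and 1.3% fell in Het against Wt, and 5.16% rose and 3.34% fell in Hom against Wt. Of 7 kept markers of Schwann and satellite glia, Mbp and S100b fell in both Het and Hom against Wt. The Mbp calls were lost in 9 alternatives for Het and 3 for Hom, those of S100b in 2 and 19. Without P0 Wt replicates 1 and 4 the Mbp calls and the Hom call of S100b were lost, and without P0 Wt replicate 3 Mbp fell by 1.89 and 1.77 in place of 2.52 and 2.40. Without P0 Wt replicate 2 it fell by 3.21 and 3.09. Mbp was between 7.64 and 11.60 in P0 Wt and between 6.81 and 7.76 in the mutants, while the summed glial level overlapped, from 13.67 to 14.59 in P0 Wt, 13.63 to 13.86 in P0 Het and 13.40 to 14.19 in P0 Hom. Muscle markers summed to 7.14 to 15.01 in P0 Wt, 7.68 to 12.72 in P0 Het and 9.75 to 12.13 in P0 Hom, and none of the 8 kept was called between genotypes. Of 4 kept macrophage and leukocyte markers, Mrc1 fell in Het and Ptprc in Hom, the first call lost in 19 alternatives and the second in 3. The macrophage sum was 7.72 to 9.04 in P0 Wt, 7.38 to 7.68 in P0 Het, which did not overlap Wt, and 7.30 to 7.95 in P0 Hom. None of the 6 kept mesenchyme markers was called, and their sum was 13.99 to 14.91 in P0 Wt, 13.59 to 13.80 in P0 Het, again without overlap, and 12.96 to 14.40 in P0 Hom. The endothelial gene Kdr rose by 0.75 in Hom, a call lost in 9 alternatives, while the endothelial and red blood cell sum ranged from 7.28 to 8.15 in P0 Wt, 6.84 to 7.79 in P0 Het and 7.45 to 7.75 in P0 Hom. None of the 5 kept fat markers was called, and their sum was 12.51 to 13.63 in P0 Wt, 10.50 to 12.33 in P0 Het, which did not overlap Wt, and 11.25 to 14.62 in P0 Hom. The part of these cells in the fate gene results was not tested. Without P0 Wt replicates 1 and 4, the Hom difference was -1.92 for Hmx1, 4.60 for Shox2 and 2.19 for Prima1, all called, and 0.65 for Ache, which was not.

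The genes whose pattern was most like that of each listed gene were ranked by Pearson's r over the 17 arrays, which share age and genotype groups, so that r describes these arrays and carries no test. For Hmx1 these were Tmem35a (r = 0.923), Rgs4 (r = 0.910) and Ecel1 (r = 0.897). For Shox2 they were the synapse organiser gene Cbln2 (r = 0.976), the cannabinoid receptor gene Cnr1 (r = 0.967) and the desmosome gene Dsp (r = 0.963). Cbln2 stood at 4.42 ± 0.76 in P0 Wt, 8.74 ± 0.22 in P0 Het and 10.76 ± 0.79 in P0 Hom (SD, n = 4 each), and at 2.92 ± 0.14 in P18 Wt (SD, n = 3) and 4.90 ± 0.18 in P18 Het (SD, n = 2). Its order is that of Shox2, which the choice of Cbln2 by r over these arrays favours. Its differences from Wt at P0 were 4.31 in Het and 6.34 in Hom, and 4.96 and 6.98 without P0 Wt replicates 1 and 4. The P0 Wt mean of Cbln2 lay near the limit of 4, so these differences are inexact in size. For Ache the genes most alike were Clu (r = 0.979), Man1a (r = 0.969) and Fxyd7 (r = 0.969). For Prima1 they were Ntm (r = 0.929), Nrg3 (r = 0.905) and the neurofilament gene Nefl (r = 0.8996).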

How the data were processed

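The authors processed the arrays with GCRMA and a Brainarray annotation, and deposited log2 values, 1 per probe set and array. Versions are not given in the sources used here, nor whether all arrays were normalized together. Labels name the miRNeasy kit for RNA and the study's methods Trizol for ganglia. Of 17306 probe sets, 16464 had 1 symbol through the platform table and 842 none. Group means were fitted to the 17 arrays with limma 3.58.1 (R 4.3.3), without covariates, and contrasts were tested two-sided by eBayes with trend and robust. Benjamini-Hochberg adjustment ran over the 9973 probe sets kept. Called means that the adjusted p was under 0.05. The 27 alternatives per comparison without a pairing were no filter or a limit of 6, plain eBayes, quantile normalization, median centring, compared arrays only, array weights, 2 pairs of arrays left out, each of 17 arrays left out, and the two-tailed test of the study's methods (the methods' t-test) with the same adjustment, which was not run for the difference of Het effects. Reading them for the genes of the other lists was added after seeing the data. The script was tested on simulated data. Sequences came from RefSeq tables of GRCm38.p6, which held a window for all 8 listed genes. The listed genes, the other lists and the tests were chosen with earlier results of these data known. Named were the 8 listed genes, up to 3 called rises and 3 called falls of each other list per comparison, Th, Dbh, Ret, Vip, Alk and Npy, and the 3 genes most like each kept gene. Not all are printed, and genes named beyond these, such as Pou4f1, P2rx3, Lifr and Il6st, were picked with their values in view. The number of arrays limits precision.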

Additional observations from a re-analysis of the deposited data

Results flagged for a closer look

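Among 64 genes, the 7 listed genes with values, the kept genes of the other transmitter and identity lists, Alk, the genes most like a listed gene and 6 markers, 15 values stood apart within a P0 group of 4 arrays, by a gap past Dixon's critical value for 4 values. That limit is passed by chance in about 1 in 20 groups, and 192 groups were examined. The groups share arrays, and some genes were picked for likeness to a listed gene, so the flags are not independent. No value of the 7 listed genes was among the 15.

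Of the 15, 6 were in P0 Hom replicate 10. Ret was at 10.31 there and between 11.44 and 11.50 in the other 3 Hom arrays, a gap of 0.952 of the group's range. Ddc was at 13.45 there and between 12.79 and 12.82 in the others, a gap of 0.951 of the range. Cbln2 at 9.59, Man1a at 6.22, Fxyd7 at 8.50 and Ptprc at 3.40 were each the lowest Hom value. Cbln2 had been picked for likeness to Shox2, and Man1a and Fxyd7 for likeness to Ache. Ache was itself lowest among the Hom arrays in replicate 10.

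The other 9 were spread over the groups. In P0 Wt they were Sox11 at 9.65 in replicate 2, Eya1 at 10.27 and Il6st at 4.48 in replicate 1, and Slc44a1 at 7.28 in replicate 3. In P0 Het they were Cbln2 at 9.06 in replicate 5, and Man1a at 6.08 and Ptprc at 3.61 in replicate 6. In P0 Hom they were Gfra3 at 9.16 in replicate 9 and Adcyap1 at 3.73 in replicate 12.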

How the results depend on the processing

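Counts of fate genes called with alternatives are read against main counts of 1 (Het) and 4 (Hom) relative to Wt at P0, 3 for Hom against Het and 1 at P18. Array weights gave 3 for Het against Wt (adding Hmx1 and Prima1). For Hom against Wt, fits of the compared arrays only and the methods' t-test each gave 2 (Hmx1 and Shox2). The methods' t-test gave 1 for Hom against Het (Hmx1). In the other lists it lost the Hom calls against Wt of Gata2, Tbx20, Sox4, Ret, Sst, Npy and Adcyap1, among others. At P18 the count was 0 with no filter, a stricter filter, quantile normalization, median centring, compared arrays only, the methods' t-test and P0 Wt replicates 1 and 4 left out, and 2 with array weights. Leaving out each array in turn gave 0 to 1 at P18, 3 to 4 for Hom against Wt and 2 to 3 for Hom against Het. The differences that changed sign did so only in such fits and near 0. For Ache the Het effect at P18 minus P0 ranged from -0.19 to 0.019, reaching 0.013 without P0 Wt replicate 1 and 0.019 without P0 Het replicate 5, and for Prima1 Het against Wt at P18 ranged from -0.016 (without P18 Wt replicate 1) to 0.23. Of 756 values of single genes under alternatives, 694 kept direction and side of the threshold, and 54 lost and 5 gained a call. The causes were not tested.

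With the replicate block over numbers 1 to 3 in Wt, 2 fate genes were called between ages, as without it (Hmx1 -1.29, Shox2 -0.63, Ache 1.87, Prima1 -0.45), and 4123 of all genes in place of 5480. These numbers do not pair animals of different ages, and their deviations correlated at -0.0078, 0.074 and -0.12.

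Over all genes the calls at P0 were 310 for Het and 848 for Hom relative to Wt, and 737 for Hom relative to Het. At P18 they were 26, and 14 for the difference of Het effects. The methods' t-test gave 60, 142, 224 and 1. Array weights gave 845, 1536, 2647, 401 and 303. No filter gave 474 for Hom against Het, 56 at P18 and 31 for the difference, the stricter filter 15 and 3 for the latter pair, compared arrays only 347 for Hom against Wt and 27 for the difference, and plain eBayes 23 for it. Without P0 Wt replicates 1 and 4 there were 688 for Het against Wt and 56 for the difference, and with P0 Wt replicate 3 and also P0 Hom replicate 12 left out there were 1449 for Hom against Het, 46 at P18 and 65 for the difference. Single arrays left out gave 157 to 483, 651 to 1233, 350 to 1047, 3 to 39 and 2 to 28.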
